A study of Mus musculus with 6 samples.

Results

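A set of 10 genes that mark or drive mesenchymal identity or, for the keratins, mark epithelia was followed in mouse NIH3T3 fibroblasts. They were the EMT transcription factor genes Snai1, Snai2, Twist1, Twist2, Zeb1, Zeb2 and Prrx1, the mesenchymal filament gene Vim and the keratin genes Krt8 and Krt18. The 10 genes were chosen by name out of 23536 named genes on the array, and every probe that carries one of their transcript accessions was used, which gave 15 probes. NIH3T3 is an established line of embryonic fibroblasts. The GGCT-OE arrays hold RNA of cells that stably express GGCT (gamma-glutamylcyclotransferase, an enzyme of glutathione turnover) from the retroviral vector pCX4bsr, and the empty arrays hold RNA of cells that carry the control vector. Both groups were grown with 2% serum and have 3 single-colour Agilent arrays each, numbered by experiment 1 to 3. The labels describe stably infected cells, do not name clones, and do not say whether the infection was repeated, so p-values measure only the spread between these arrays, which may be technical. No source used here names the promoter that drives GGCT.

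Epithelial-mesenchymal transition (EMT) is the programme by which epithelial cells lose their junctions and keratins and take on a migratory, fibroblast-like state. SNAI, TWIST and ZEB proteins are its classic drivers. SNAI and ZEB proteins are zinc finger repressors that bind E-boxes, short DNA sites, in genes such as E-cadherin, and TWIST proteins are basic helix-loop-helix factors that bind E-boxes as dimers with E proteins. Fibroblasts carry several of these factors as part of their normal identity, together with PRRX1, a homeodomain factor of limb and connective tissue mesenchyme, and vimentin, their main cytoplasmic intermediate filament. Keratins 8 and 18 pair with each other to build the filaments of simple epithelia.

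The promoters of Snai1, Krt8 and Krt18 are shown because these were the genes, among those with an entry, whose 250 bases before the annotated start hold the letters CACCTG, the E-box form bound by SNAI and ZEB proteins. The sequences are from RefSeq, assembly GRCm38.p6, are written 5′ to 3′ in the direction of the gene and end just before the start site. Capitals mark CACCTG.
Snai1, GRCm38.p6 chr2:167537945-167538194, plus strand: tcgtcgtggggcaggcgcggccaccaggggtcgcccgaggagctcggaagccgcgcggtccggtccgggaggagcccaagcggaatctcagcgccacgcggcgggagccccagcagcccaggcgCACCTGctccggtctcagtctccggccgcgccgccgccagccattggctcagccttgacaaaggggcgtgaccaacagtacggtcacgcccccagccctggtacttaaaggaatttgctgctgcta
Krt8, GRCm38.p6 chr15:102004343-102004592, minus strand: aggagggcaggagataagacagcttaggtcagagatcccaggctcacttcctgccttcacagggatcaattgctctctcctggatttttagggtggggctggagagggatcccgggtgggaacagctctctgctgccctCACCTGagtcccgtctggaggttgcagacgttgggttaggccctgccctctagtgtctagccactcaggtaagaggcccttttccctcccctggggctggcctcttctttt
Krt18, GRCm38.p6 chr15:102027966-102028215, plus strand: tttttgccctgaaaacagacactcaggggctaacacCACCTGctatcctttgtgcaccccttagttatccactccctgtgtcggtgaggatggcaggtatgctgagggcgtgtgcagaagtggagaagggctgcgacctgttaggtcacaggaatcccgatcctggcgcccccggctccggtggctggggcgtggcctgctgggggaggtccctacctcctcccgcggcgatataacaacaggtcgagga
Entries were at hand for 8 of the 10 genes, 11 start sites in all, and both strands were searched for CACCTG, whose reverse complement is CAGGTG. In Snai1 the first base of the match lies at -126 from the start, in Krt8 at -111 and in Krt18 at -214. The windows of Twist1, Twist2, Prrx1 and Vim and the 4 windows of Zeb2 hold no CACCTG, and no CANNTG, the general E-box of which CACCTG is one form. The Krt8 window holds 1 further form of the general E-box, CAATTG, at -184. Of 32851 promoter windows of the same length, 17.2% hold CACCTG on either strand and 66.2% hold CANNTG. A match is a description of letters and was not measured as binding.

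Values below are log2 signals relative to each array's 75th percentile over probes, so a probe at 0 is as bright as that percentile. Levels are compared between arrays for 1 probe, never between probes. Summed signals of a list add unlogged signals over its probes, so the brightest probes weigh most in them. By the flag of the scanner software, 54.6% to 61.6% of an array's probes were well above background. Experiment 1 of both groups was hybridised on slide 1 and experiments 2 and 3 on slide 2. The 1 probe for Ggct gave -0.14, 0.20 and -0.16 on the GGCT-OE arrays, against -0.57, -0.72 and -0.65 on the empty arrays (experiments 1 to 3). No source used here names the species of the introduced GGCT, so whether this probe reads its RNA is unknown. All 8 fibroblast-defining markers examined, among them Col1a1, Col3a1, Thy1, Pdgfra and Dcn, were well above background on all 6 arrays. The epithelial adhesion genes Cdh1 (E-cadherin) and Epcam and the leukocyte gene Ptprc were well above background on none. Other such genes were detected: 8 of 24 epithelial and 2 of 5 immune markers examined were well above background on all 6 arrays. In the same lists 10 epithelial and 2 immune markers were well above background on no array.

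With GGCT the EMT factors changed in both directions. Snai2 fell 5.99-fold, Snai1 and Twist2 fell 1.50-fold and 1.42-fold, Zeb1 and Prrx1 rose 1.29-fold to 1.39-fold, and the keratin gene Krt8 rose 2.26-fold. Twist1, Zeb2 and Vim did not pass the test, and Krt18 was too dim to be tested. Of the 14 probes tested, 5 were called higher and 3 lower, at an adjusted p under 0.05 in a limma fit over all 31110 probes tested. In the same fit 35.2% of all probes were called, 17.7% higher and 17.5% lower. By gene, 3 rose (Zeb1, Prrx1 and Krt8), 3 fell (Snai1, Snai2 and Twist2), 3 were not called and 1, Krt18, was not tested. Of 14060 named genes tested, 20.2% were higher and 23.8% lower. GGCT-OE and empty arrays did not overlap for 8 of the 14 probes and for 49.7% of all probes tested. With experiment as a block, 9 of the 14 probes and 53.6% of all probes were called. The median difference of the 14 probes was 0.12, against 0.02 over all probes.

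**Figure D1:**
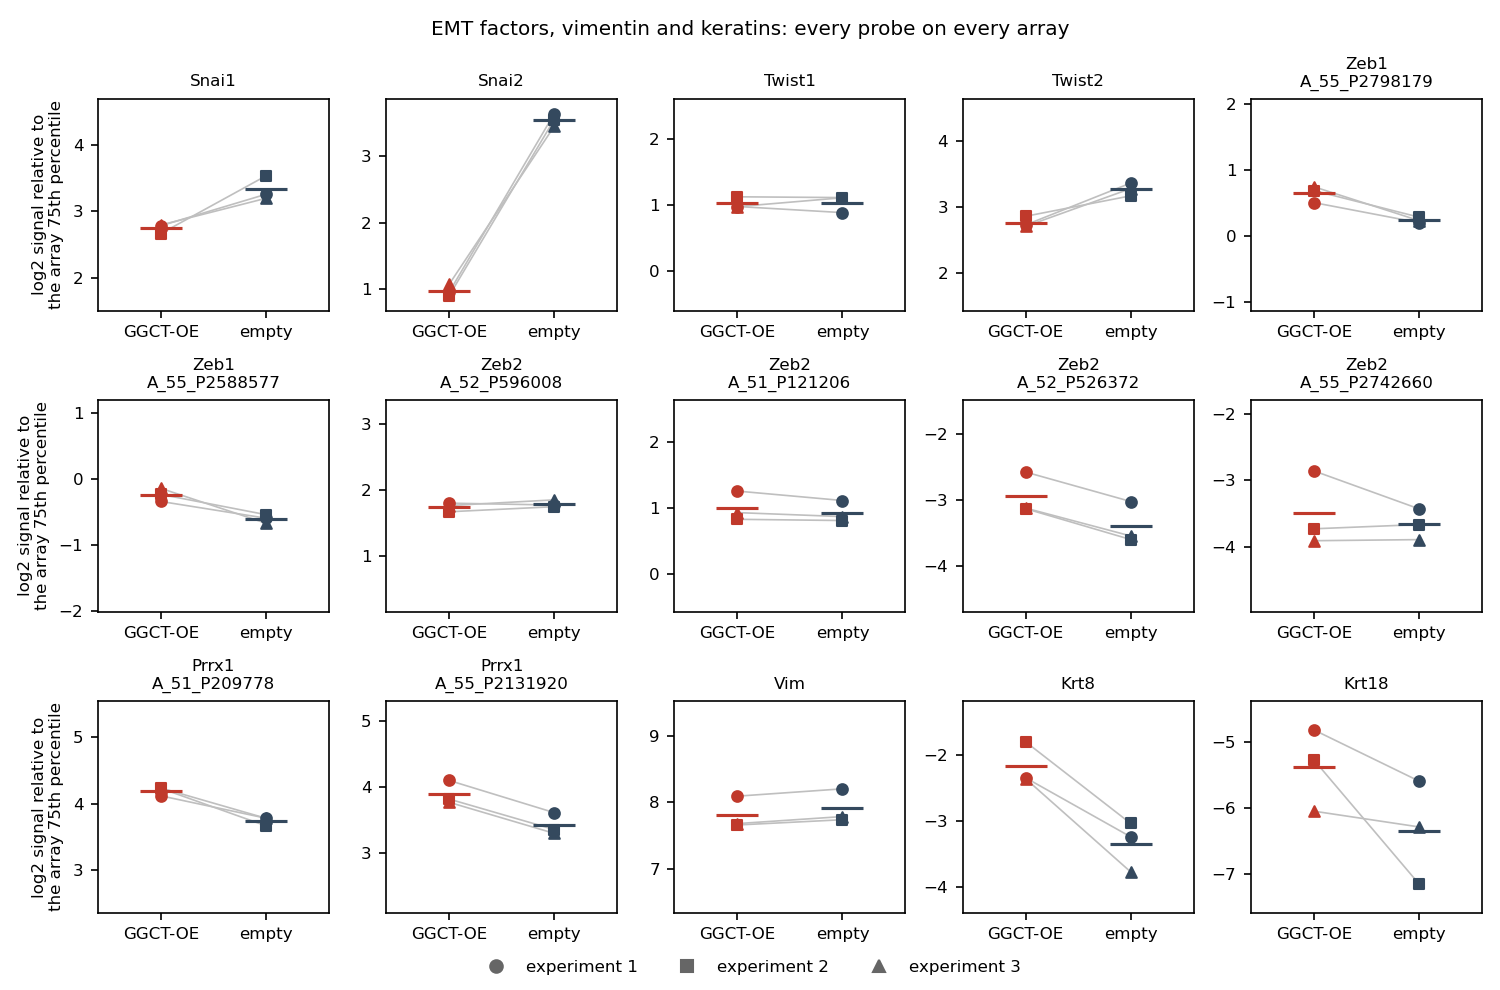
Log2 signal relative to the array's 75th percentile for each of the 15 probes, GGCT-OE arrays in red and empty arrays in dark blue. Symbols give the experiment, grey lines join arrays of the same experiment, horizontal bars are group means, and each panel has its own vertical position but nearly the same span. Snai2 sits between 0.89 and 1.07 on the GGCT-OE arrays and between 3.46 and 3.65 on the empty arrays.

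Snai2, which encodes SLUG, a SNAI-family repressor prominent in neural crest and connective tissue cells, had the largest change among the 10 genes. Its probe stood at 0.95, 0.89 and 1.07 on the GGCT-OE arrays, against 3.65, 3.56 and 3.46 on the empty arrays. All 3 GGCT-OE arrays lay far below all empty arrays, and within each group the arrays differed little. The mean was 0.97 ± 0.09 with GGCT and 3.55 ± 0.10 with the empty vector (SD, n = 3 each). The log2 difference was -2.58 ± 0.09 (SE), a 5.99-fold decrease (limma, adjusted p = 3.09e-05). Of all probes tested, 1.27% had a difference this low or lower. In RNA from a whole culture, fewer cells that express a gene and less RNA per cell cannot be told apart, here and for every gene below. Slide 1 gave a difference of -2.70 and slide 2 one of -2.53, and Snai2 stayed past the threshold in all 22 alternatives, with differences from -2.68 to -2.35. The exact permutation test (2-sided) returned p = 0.1 for Snai2 and for each of the other 7 called probes, the lowest value possible with 3 arrays a group.

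Snai1, which encodes SNAIL, the family member first linked to repression of E-cadherin, moved the same way by less. It stood at 2.78, 2.66 and 2.79 on the GGCT-OE arrays, against 3.26, 3.54 and 3.20 on the empty arrays. The groups did not overlap, and the empty array of experiment 2 was the highest. The difference was -0.58 ± 0.12 (SE), a 1.50-fold decrease (limma, adjusted p = 0.0107). Without both arrays of replicate 2 it was -0.44 (adjusted p = 0.0813) and without both of replicate 3 -0.67 (adjusted p = 0.0895), where 2 arrays a group remain. Snai3, the third family gene, stayed near background on all 6 arrays and was not tested.

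Of the 2 TWIST genes, Twist2 passed the test and Twist1 did not. Twist2 (DERMO1), a factor of dermal and other mesenchymal precursors, stood at 2.73, 2.86 and 2.71 on the GGCT-OE arrays, against 3.36, 3.17 and 3.28 on the empty arrays. Every GGCT-OE array was below every empty array. The difference was -0.50 ± 0.09 (SE), a 1.42-fold decrease (limma, adjusted p = 0.00836), lost only without both arrays of replicate 3 (-0.47, adjusted p = 0.148) among 22 alternatives. Twist1, the related factor of cranial and limb mesenchyme, stood at 0.98, 1.13 and 0.98 on the GGCT-OE arrays, against 0.89, 1.12 and 1.11 on the empty arrays. The groups overlapped. The difference was -0.01 with a 95% interval of -0.26 to 0.24 (limma, adjusted p = 0.952), so a change of the size seen for Twist2 lies outside the interval. The difference between the changes of Twist1 and Twist2 was not itself tested, and each gene rests on 1 probe.

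Of the 2 ZEB genes, Zeb1 passed the test and Zeb2 did not, and the difference between their changes was not tested. Zeb1, a repressor of epithelial genes that is itself held down by miR-200 microRNAs, was read by 2 probes that gave near-equal differences. The first (A_55_P2798179) stood at 0.50, 0.69 and 0.74 on the GGCT-OE arrays, against 0.20, 0.28 and 0.23 on the empty arrays. The other (A_55_P2588577) stood at -0.34, -0.23 and -0.14 on the GGCT-OE arrays, against -0.59, -0.54 and -0.67 on the empty arrays. On both probes every GGCT-OE array was above every empty array. The differences were 0.41 ± 0.09 and 0.36 ± 0.09 (SE), 1.32-fold and 1.29-fold increases (limma, adjusted p = 0.0188 and 0.0242). These calls were not stable: each probe missed the threshold in 9 alternatives, namely with a median shift (adjusted p = 0.0614 and 0.0733), with dim probes kept in (0.0838 and 0.105), and on leaving out any 1 empty array, GGCT-OE array 2 or 3, or both arrays of experiment 2 or 3. Adjusted p reached 0.225 and 0.288 without both arrays of replicate 3, while the differences stayed between 0.35 and 0.48 on the first probe and between 0.26 and 0.46 on the other.

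Zeb2 (SIP1), the other ZEB repressor, was read by 4 probes, and none was called. The first (A_52_P596008) stood at 1.80, 1.67 and 1.76 on the GGCT-OE arrays, against 1.77, 1.75 and 1.85 on the empty arrays, and the groups overlapped. Its difference was -0.04 with a 95% interval of -0.24 to 0.15 (limma, adjusted p = 0.717). The second (A_51_P121206) differed by 0.07 (-0.28 to 0.43, adjusted p = 0.736). The other 2 probes, each dim on all 6 arrays, differed by 0.44 (A_52_P526372, -0.09 to 0.98, adjusted p = 0.169) and 0.16 (A_55_P2742660, -0.54 to 0.87, adjusted p = 0.705). Probe A_52_P526372 is annotated to another Zeb2 transcript than the first 2 probes, and A_55_P2742660 to a non-coding one. Within each experiment A_52_P526372 was higher with GGCT, by 0.45, 0.47 and 0.42, while experiment 1 lay above the others in both groups. With experiment as a block it was called higher (0.44, limma adjusted p = 0.00448), and likewise with the slide as a block (0.00178), with array weights (0.0233) and on slide 2 alone (0.0161). Zeb2 probe A_52_P596008 had an adjusted p of 0.535 with that block.

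Prrx1 rose on both of its probes, which are annotated to different transcripts of the gene. Probe A_51_P209778 stood at 4.12, 4.23 and 4.24 on the GGCT-OE arrays, against 3.78, 3.66 and 3.78 on the empty arrays. Probe A_55_P2131920 stood at 4.10, 3.82 and 3.77 on the GGCT-OE arrays, against 3.61, 3.36 and 3.30 on the empty arrays. The groups did not overlap on either probe, and on the second one experiment 1 was highest in both groups. The differences were 0.45 ± 0.08 and 0.47 ± 0.13 (SE), 1.37-fold and 1.39-fold increases (limma, adjusted p = 0.00853 and 0.0365). The first probe lost the call without both arrays of replicate 2 (adjusted p = 0.106) or of replicate 3 (0.140). The second lost it in 8 of 20 alternatives, namely with dim probes kept in (0.119), without both arrays of experiment 2 or 3 (0.189 and 0.195), and on leaving out any 1 array of experiments 2 and 3 or the GGCT-OE array of experiment 1 (0.0634 to 0.126). Prrx2, the paralog of Prrx1, went the other way. Its 2 probes had log2 differences of -2.45 and -2.41, and the second stood at 1.64, 1.31 and 1.52 on the GGCT-OE arrays, against 4.11, 3.64 and 3.93 on the empty arrays (limma, adjusted p = 0.000191).

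Vim, which encodes vimentin, was bright on every array and showed no detectable difference. Its probe stood at 8.10, 7.66 and 7.68 on the GGCT-OE arrays, against 8.21, 7.74 and 7.79 on the empty arrays. The groups overlapped, and experiment 1, on slide 1, lay above the others in both groups. Within each experiment the GGCT-OE array was slightly lower, by 0.11, 0.08 and 0.11. The difference was -0.10 with a 95% interval of -0.53 to 0.34 (limma, adjusted p = 0.712), and with experiment as a block the adjusted p was 0.170. The sign turned positive with quantile normalization (0.02) and with normexp background (0.04).

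Krt8, the type II keratin of simple epithelia, was dim but well above background on all 6 arrays. It stood at -2.35, -1.81 and -2.37 on the GGCT-OE arrays, against -3.24, -3.04 and -3.77 on the empty arrays. Every GGCT-OE array was above every empty array, with more spread within groups than for the transcription factors called. The difference was 1.18 ± 0.24 (SE), a 2.26-fold increase (limma, adjusted p = 0.0118), and 2.45% of all probes tested had one as high or higher. Slide 1 gave 0.89 and slide 2 gave 1.32. Background correction by normexp, which adds a constant to every signal and so shrinks log2 differences of dim probes, gave 0.63. The call was lost without both arrays of replicate 2 (1.15, adjusted p = 0.0511) or of replicate 3 (1.06, adjusted p = 0.0717). Krt18, its type I partner, stood at -4.81, -5.27 and -6.04 on the GGCT-OE arrays, against -5.59, -7.14 and -6.28 on the empty arrays. It was well above background on 1 GGCT-OE array and on no empty array, so no fold is given and a difference was not detectable at this signal. KRT8 and KRT18 have many pseudogenes in human, and whether the single mouse probes also read other copies was not tested.

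**Figure D2:**
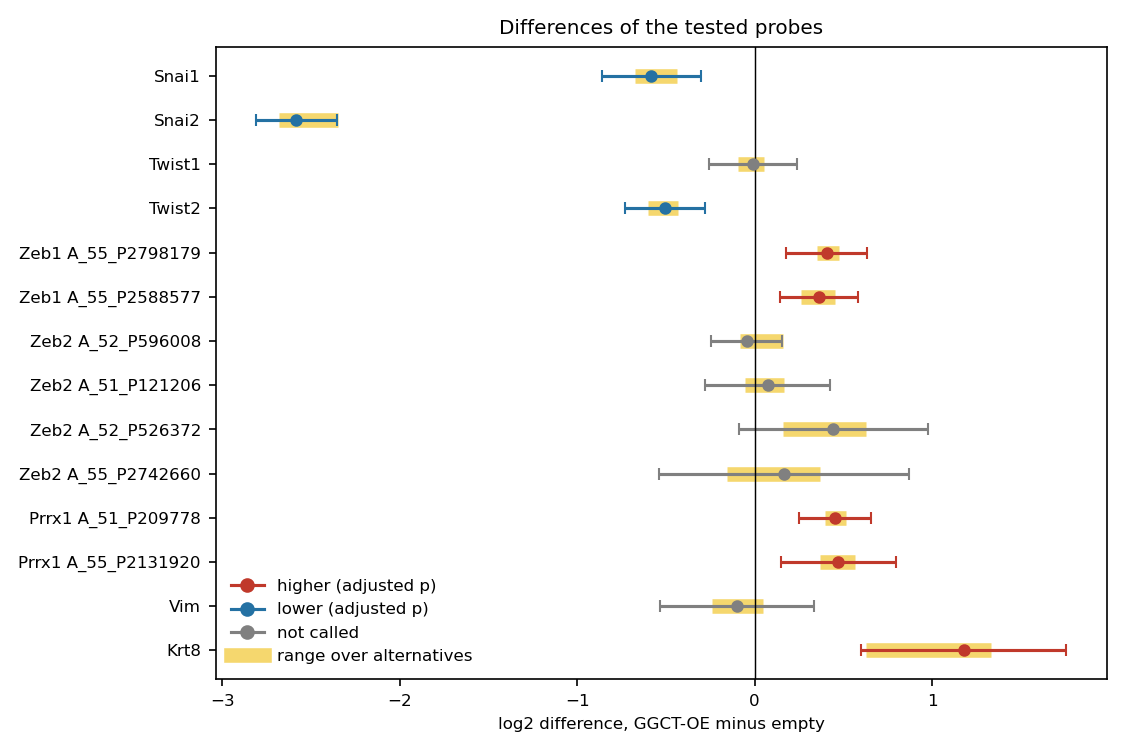
Log2 difference, GGCT-OE minus empty, for the 14 tested probes. Points are differences with their 95% intervals from the limma fit, coloured by call, and yellow bars span the values over the alternatives. Snai2 lies alone at -2.58, the other called probes lie between -0.58 and 1.18, and the intervals of Twist1, Vim and all Zeb2 probes include 0.

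Around the 10 genes, lists of related genes were counted by gene, a gene being higher or lower if any of its tested probes was called. Of 23 mesenchymal and fibroblast marker genes tested, 13 were lower, 4 higher and 6 not called. Among all named genes 23.8% were lower and 20.2% higher. With experiment as a block 15 of the marker genes were lower and 5 higher. That fit called 53.6% of all probes in either direction, 8517 higher and 8157 lower of 31110. Its shares by named gene were not computed. The median over the 42 tested probes of the marker genes was -0.41, against 0.02 over all probes. This list, like the others, was chosen with earlier results of these data known. Falls were found for the crosslinking enzyme Lox (-1.23, limma adjusted p = 0.000467), the collagen chain Col1a1 (-1.29, adjusted p = 0.000709) and the smooth muscle actin Acta2. The 3 Acta2 probes gave differences of -0.41, -3.88 and -4.54, and the last was well above background on only 2 of the 3 GGCT-OE arrays. The first 2 probes, well above background on all 6 arrays, disagreed in size. Postn, a matrix protein of healing connective tissue, had differences of -5.87, -6.52 and -7.41 on its 3 probes, which were well above background on 3, 1 and 2 of the 3 GGCT-OE arrays, so the last 2 sizes rest partly on signals at background (adjusted p = 0.000272 for the last). The summed signal of all probes of the list ran from 2016 to 2502 times the array's 75th percentile on the GGCT-OE arrays, against 2942 to 3565 times on the empty arrays. Rises were found for the proteoglycans Lum (1.74, adjusted p = 0.000206) and Dcn (0.46, adjusted p = 0.00580), the matrix glycoprotein Tnc (1.05, adjusted p = 0.00277) and the growth factor receptor Pdgfra (0.86, adjusted p = 0.00827). N-cadherin (Cdh2), a classic marker of the mesenchymal state named after its value was seen, differed by -0.31 and was not called (limma adjusted p = 0.108). It did not overlap between groups, and was called lower with experiment as a block (limma adjusted p = 0.0197). Of all probes tested, 49.7% did not overlap and 53.6% were called with that block, in either direction.

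Epithelial markers were detected in part. Of 24 such genes, 10 were well above background on none of the arrays and 8 on all 6. The summed signal of all their probes ran from 58.2 to 60.5 times the array's 75th percentile on the GGCT-OE arrays, against 64.4 to 65.6 on the empty arrays. Of 10 tested, 3 were higher, 2 lower and 5 not called (median over 14 probes -0.08), against 20.2% higher and 23.8% lower of all named genes. The desmosome plaque gene Pkp3 rose (1.59, limma adjusted p = 0.00121) and was well above background on 1 of 3 empty arrays. The tight junction genes Cldn4 (0.70, adjusted p = 0.00765) and Tjp1 (0.44, adjusted p = 0.0156) also rose. Another desmosome gene, Pkp1, was at least 2.46-fold lower with GGCT, where it was not well above background on any array (adjusted p = 0.000159). With normexp background the Pkp1 difference was -0.61, smaller than that bound. The hemidesmosome integrin Itgb4 stood at 0.53, 1.01 and 0.68 on the GGCT-OE arrays, against 3.32, 3.57 and 3.39 on the empty arrays, a 6.44-fold fall (adjusted p = 0.000114). Among 6 tested regulators of epithelial fate, Klf4 alone was lower (-0.60, adjusted p = 0.00804) and none higher. The grainyhead factor Grhl2 and the splicing factor Esrp2, both epithelial regulators, were not tested. With experiment as a block 3 of the 6 tested regulators were lower. That fit called 53.6% of all probes in either direction, 8517 higher and 8157 lower of 31110. Its shares by named gene were not computed.

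Among partners and cofactors of the EMT factors, calls in each direction were close to the 20.2% higher and 23.8% lower of all named genes. Of 25 tested, 6 were higher, 7 lower and 12 not called (median over 45 probes 0.05). With experiment as a block 10 were higher and 8 lower. That fit called 53.6% of all probes in either direction, 8517 higher and 8157 lower of 31110. Its shares by named gene were not computed. The 4 ID genes, whose products bind E proteins and keep them from DNA, were called lower with GGCT. Id1 fell by 1.83 (limma adjusted p = 0.00117), Id2 by 1.23 (adjusted p = 0.000341) and Id3 by 0.74 (adjusted p = 0.0215), and Id4 was at least 34.5-fold lower (adjusted p = 2.36e-05), with a fitted difference of -3.06 under normexp background. Id1, Id2 and Id4 kept their calls under all alternatives tried for them, and Id3 was not recomputed. The E protein gene Tcf3, which encodes a dimer partner of TWIST proteins, rose by 0.37 (adjusted p = 0.0158), a call lost in 6 of 22 alternatives, while the 4 probes of the E protein gene Tcf4 differed by -0.08 to 0.05 and none was called. Ezh2, the histone methyltransferase of Polycomb repression, was higher on all 5 of its probes, by 0.75 to 0.87. Ets1, an ETS-family transcription factor, rose by 0.68 and 0.60 on its 2 probes (adjusted p = 0.0146 for both). Hmga2, a chromatin protein that promotes Snai1 transcription in other cell systems, rose by 1.52 and 1.56 on 2 of its 4 probes (adjusted p = 0.00172 and 0.00275) and differed by 0.23 and 0.04 on the others. Of the genes for the SNAIL ubiquitin ligases, Fbxl14 rose by 0.41 (adjusted p = 0.0342) and Btrc by 0.44 on 1 of 2 probes (adjusted p = 0.0493), and the kinase gene Gsk3b, whose product marks SNAIL for breakdown, fell by 0.53 on 1 of 3 probes (adjusted p = 0.00354). Fbxl14, Btrc, Gsk3b and Id3 were named after their values were seen, as were the list genes given here as uncalled or untested.

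Other genes of the intermediate filament system were also called at shares near those of all named genes (20.2% higher and 23.8% lower). Of 14 tested, 4 were higher, 4 lower and 6 not called (median over 18 probes -0.01). With experiment as a block 4 were higher and 5 lower. That fit called 53.6% of all probes in either direction, 8517 higher and 8157 lower of 31110. Its shares by named gene were not computed. The basal keratin gene Krt14 had a difference of -1.46 (limma adjusted p = 0.00381), which was -0.57 with normexp background. Krt15 was at least 9.90-fold lower with GGCT (limma adjusted p = 0.000205). With normexp background the Krt15 difference was -1.57, smaller than that bound. The differentiation keratin gene Krt10 rose by 0.44 (adjusted p = 0.0146), a call lost in 5 of 22 alternatives. The nuclear lamins Lmnb1 (1.06, adjusted p = 0.00544) and, on 1 of 2 probes, Lmnb2 (0.84, adjusted p = 0.0217) rose, whereas Lmna was lower on 1 of 3 probes (-0.68, adjusted p = 0.00193). Plec, which links intermediate filaments to adhesions, fell by 0.49 on both probes (adjusted p = 0.00573 and 0.0259). Gfap, the astrocyte filament gene, rose by 0.53 on its detected probe (adjusted p = 0.00859). Nes, Krt7, Krt17, Krt6a, Prph and Synm were tested and not called, and Prph was called lower with experiment as a block (-0.98, limma adjusted p = 0.00303).

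**Figure D3:**
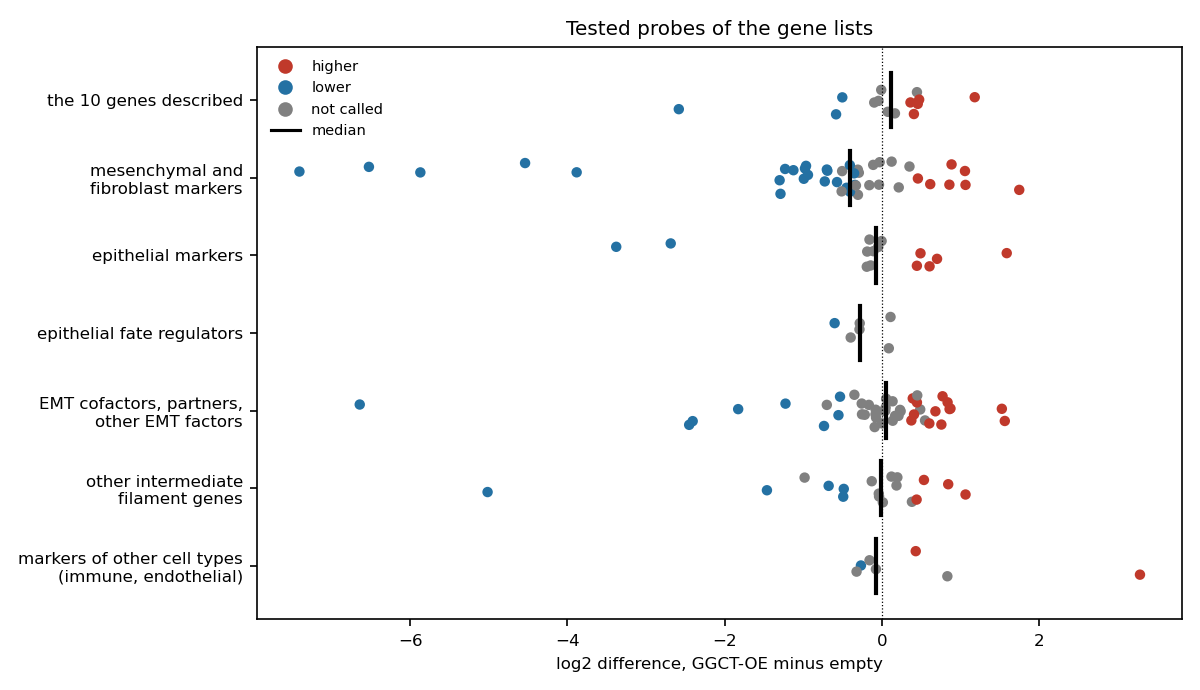
Log2 difference, GGCT-OE minus empty, for every tested probe of the 10 genes and of each list, coloured by call, with the list's median as a black bar. Genes that were not well above background in a group are drawn at their measured difference. The mesenchymal and fibroblast markers have the lowest median, -0.41, and hold probes from -7.41 to 1.74.

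Some markers of other cell types were detected. Of 9 immune and endothelial genes 3 were well above background on all 6 arrays, 5 were tested, and no array had the other 4 well above background. The endothelial cadherin gene Cdh5 was at least 2.18-fold higher with GGCT, where it was well above background on all 3 arrays against no empty array (limma, adjusted p = 0.000268). With normexp background the Cdh5 difference was 0.52, smaller than that bound. The endothelial adhesion gene Pecam1 rose by 0.43 (adjusted p = 0.0467), a call lost in 12 of 22 alternatives, and the endothelial receptors Kdr and Tek were among the undetected 4. The summed signal of the 4 endothelial genes ran from 0.243 to 0.283 times the 75th percentile on the GGCT-OE arrays, against 0.144 to 0.180 times on the empty arrays. That of the 5 immune genes ran from 1.96 to 1.99 times on the GGCT-OE arrays, against 2.15 to 2.34 times on the empty arrays. The lysosomal macrophage marker Cd68 was lower on 1 of 2 probes (-0.27, adjusted p = 0.0459), a call lost in 13 of 22 alternatives. The part of these markers in the results above was not tested.

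The genes whose pattern over the 6 arrays was most like that of Snai2, by Pearson correlation of brightest probes over 14059 other named genes, were Eda2r (0.9996), Gdap1l1 (0.9994) and Ifitm3 (0.9993). Their log2 differences were -1.93, -4.25 and -1.56. A correlation above 0.95 was found for 1904 genes, and the 6 points fall in 2 groups, so the value reflects mainly the difference between groups.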

How the data were processed

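RNA of 3 GGCT-OE and 3 empty samples was read on single-colour Agilent arrays of 62976 spots. Per the file headers, the deposited intensity values are processed signals of Agilent Feature Extraction 12.1.0.3. A deposited table of log2 values correlated at 1 with log2 of these signals on each array over 16401 bright probes and served as an alternative. Control spots and 578 spots marked as outliers were left out, spots of a probe were averaged, and each array's 75th percentile (signals of 380 to 470.1) was subtracted from the log2 signal. Probes were named by RefSeq accession through RefSeq's GRCm38.p6 gene table, which named 61.0% of 56570 probes. Probes entered the test if every array of at least 1 group had them well above background. The test was limma 3.58.1 (R 4.3.3), 2-sided, with Benjamini-Hochberg adjustment over all 31110 probes tested and a threshold of 0.05, and it was checked on simulated data. The number of arrays limits the precision.

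The labels give both groups experiment numbers 1 to 3. Same-numbered arrays deviated together (correlations of 0.72, 0.44 and 0.34), and differently numbered arrays of slide 2 did so nearly as much (0.32 and 0.28). Every same-numbered correlation passed 0.1, as did those of differently numbered arrays on slide 2. That threshold therefore cannot single out pairing by number. The main fit had no block, so shifts shared by same-numbered arrays stay in its error and can widen its intervals. The numbers were still taken to pair the arrays in an alternative fit with the number as a block. Experiment 1 was on slide 1 and experiments 2 and 3 on slide 2, so pairing by number and a shared slide cannot be fully told apart. The 10 genes and all gene lists were chosen with earlier results of these data known. Of each list, up to 4 genes per direction with the smallest p were named, as were all probes of the 10 genes, Ggct and the 3 genes most like the gene with the smallest p. "At least" folds set the bright group's mean against the dim group's floor, the lowest signal well above background on each array or the probe's own where higher.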

Additional observations from a re-analysis of the deposited data

How the results depend on the processing

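Snai2 stayed lower and past the threshold in all 22 alternatives, and the 8 called probes kept their direction in every alternative run for them. Slide 2 alone and leaving out both arrays of experiment 1 keep the same arrays and are the same fit. Every tally of alternatives therefore holds that fit more than once. The number of the 14 probes called higher was 5, and it was 3 with a median shift, 2 with no filter on dim probes, and 3 with the brightest probe or the mean of probes per gene, which test fewer probes. Leaving out arrays gave 0 to 6 higher and 1 to 3 lower. Both counts were lowest without both arrays of replicate 3, and the higher count was also 0 without both of replicate 2, where fewer arrays remain. Over all probes, 5505 were called higher and 5434 lower. No filter gave 3051 higher and 3412 lower, and array weights gave 8580 higher and 8114 lower. The replicate block gave 8517 higher and 8157 lower, and the slide as a block 8591 and 8168. Leaving out arrays gave 1004 to 6090 higher and 1520 to 6043 lower. The replicate block changed the call of 1 of the 14 probes, the Zeb2 probe A_52_P526372.

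Uncalled differences changed sign in places, and the cause was not tested. Leaving out arrays moved Twist1 between -0.085 and 0.052, Vim between -0.24 and 0.049, and Zeb2 probes A_51_P121206 between -0.052 and 0.16 and A_55_P2742660 between -0.16 and 0.37. Twist1 was 0.000486 with quantile normalization and 0.0057 with normexp, and Vim 0.019 and 0.040. Zeb2 probe A_52_P596008 was 0.0049 with normexp and 0.16 as the mean of the 4 probes. Zeb2 probe A_55_P2742660 was -0.040 on slide 2 alone. Signal over background limits Krt18 and most epithelial genes. Of the list genes, Lmnb2 lost its call in 8 alternatives, Tcf3 in 6, Tjp1, Ets1 and Krt10 in 5 each, and Gfap in 3. Cldn4, Dcn and Plec lost theirs when both arrays of experiment 2, or both of experiment 3, were left out, Klf4, Krt14, Lmna and Pdgfra without both of replicate 3, and Lmnb1 and Tnc without both of replicate 2. With normexp background, differences of dim probes were smaller: Lum was 0.76, Pkp3 0.39, Gfap 0.22, Acta2 -2.60 and Postn -4.91. Id4 was -3.06, Krt15 -1.57, Pkp1 -0.61 and Cdh5 0.52, all smaller than the folds given for them as "at least", which hold for the 75th percentile scaling only.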
